A study of Mus musculus with 12 samples.

Results

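The 10 genes described here encode enzymes of de novo fatty acid synthesis and the lipogenic protein THRSP: Acaca, Acacb, Fasn, Scd1, Elovl5, Elovl6, Fads2, Me1, Pcx and Thrsp. Their binding sites for the nuclear receptor Rev-Erbα in mouse brown adipose tissue were taken as every row of the 2 deposited peak lists, 1 for 4 °C and 1 for 29 °C, that the authors had annotated to one of these genes. This gave 34 of the 11227 sites of the 4 °C list and 6 of the 2183 sites of the 29 °C list. Of these, 4 sites were in both lists (windows overlapping by at least 1 bp), so the rows describe 36 distinct sites, 30 listed at 4 °C only and 2 listed at 29 °C only. The shared sites were 11.8% of the 34 (exact 95% interval 3.30 to 27.5%), against 14.9% of all sites of the 4 °C list. The interval takes the sites as independent, although several lie at 1 gene, and leaves out variation between animals.

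Sites were mapped by ChIP-seq (chromatin immunoprecipitation and sequencing) with anti-HA magnetic beads in C57BL/6 mice. The groups were mice carrying HA-tagged Rev-Erbα (genotype HA-RevErba) after 1 week at 4 °C, a chronic cold exposure (4 libraries), the same genotype after 1 week at 29 °C, thermoneutrality (4 libraries), and wild-type (WT) mice without the tag put through the same pull-down at 4 °C (2 libraries) and at 29 °C (2 libraries). Libraries held between 27.0 and 37.3 M (mega) aligned reads. Each binding value was deposited as that of a pool, 1 per group, which leaves no replicate to set its error, and no test between temperatures or genotypes could be made. The labels used here do not state how the tag was introduced, the age or sex of the mice, the hour of collection, or whether each library is 1 animal, and in bulk tissue fewer bound cells and less binding per cell cannot be told apart. Binding data hold no expression levels, so the tissue label was not checked against marker genes.

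Rev-Erbα, the product of Nr1d1, is a clock repressor that binds the hexamer AGGTCA with an A/T-rich flank, alone or as a pair on direct repeats, and recruits the NCoR corepressor complex. De novo fatty acid synthesis turns citrate exported from mitochondria into palmitate in the cytosol; elongases and desaturases then extend and unsaturate the chain. In brown fat of cold-exposed mice this pathway is known to run together with fatty acid oxidation. Rev-Erbα is known in liver as a regulator of lipid synthesis genes.

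Values are FPKM, here the reads in a 200 bp window per kilobase and per M reads of the pool, and not a level of gene expression. The ratio given for a site is the HA-RevErbα density at 4 °C over that at 29 °C, computed from the whole reads behind the FPKM, with an exact 95% Clopper-Pearson interval that covers counting error only and leaves out variation between animals. Distances run from the transcription start site (TSS) that the authors' annotation names, negative upstream. Coordinates are on mouse build mm9 as the files give them.

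All 10 genes had at least 1 site in the 4 °C list, against 21.8% of the 21027 protein-coding genes, and Scd1, Elovl5, Fads2 and Thrsp also had sites in the 29 °C list, against 6.30% of protein-coding genes. The number of sites per gene in the 4 °C list was 8 at Elovl5, 6 at Scd1, 4 at Me1, 3 each at Fasn, Elovl6 and Pcx, 2 each at Acaca, Acacb and Thrsp, and 1 at Fads2. Among the 5451 genes of that list, 2.13% had 8 or more sites and 5.16% had 6 or more. The genes were chosen with these results known, so the counts describe them and single nothing out. Of the 34 sites, 18 were annotated as intronic (52.9%, against 47.8% of all windows of the list), 12 as intergenic (35.3%, against 44.3%), 3 as promoter (8.82%, against 3.82%) and 1 as 5′ UTR. The authors' detailed annotation put 7 of the 34 in repeats (20.6%, against 13.5% of all windows), 4 of them at Elovl5, 2 at Me1 and 1 at Thrsp. The 34 sites lay between 0.103 and 78.6 kb from a TSS, 10 of them within 10 kb (29.4%, against 26.1% of all windows).

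**Figure D1:**
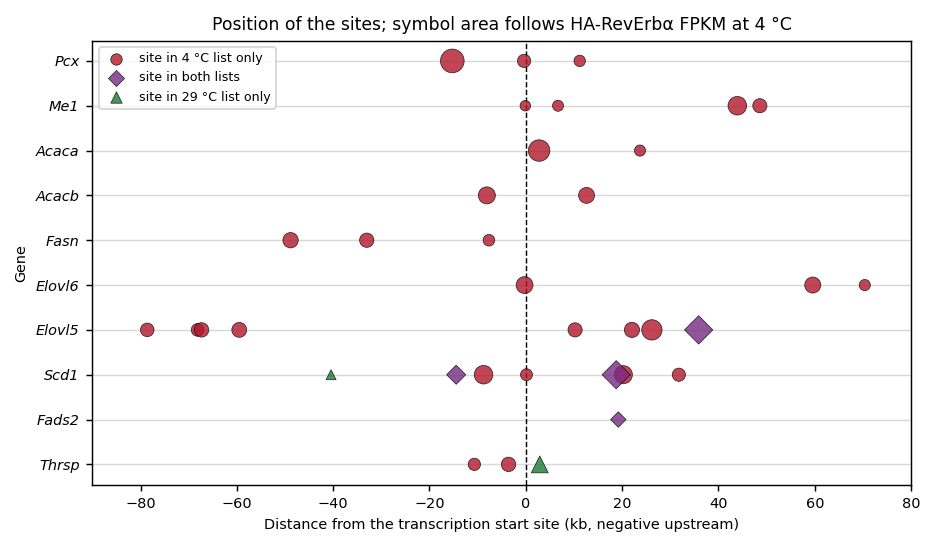
Distance of each of the 36 sites from the TSS of its gene in kb (x axis), 1 row per gene (y axis). Symbol area follows the HA-RevErbα FPKM at 4 °C, and symbols mark sites in the 4 °C list only (circles), in both lists (diamonds) and in the 29 °C list only (triangles); the 3 sites of Fasn all lie upstream, and the 8 of Elovl5 fall in an upstream and an intronic group.

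HA-RevErbα density was higher at 4 °C than at 29 °C at 33 of the 34 sites, by a median of 3.0 times, which is close to the 3.05 times over all windows of the list. The median density over the 34 sites was 7.93 FPKM in the HA-RevErbα pool at 4 °C and 2.64 FPKM in the HA-RevErbα pool at 29 °C, against 1.48 and 1.41 FPKM in the WT pools. The ratio reached 2 at 27 of the 34 sites (79.4%), while 83.4% of all windows of the list reached it. Its counting interval lay above 1 at 33 sites and included 1 at the other, Fads2, while 95.4% of all windows had an interval above 1. These shares are near the background. The list itself was selected on high signal at 4 °C. In the 6 windows of the 29 °C list no ratio reached 2 before rounding (0.827 to 2.0 after rounding), whereas 31.5% of all windows of that list did. Scaling the pools by their WT reads divided every ratio by 1.02, 1.44 or 1.71 (0.03, 0.53 and 0.77 on the log2 scale), depending on whether WT reads were summed over the 4 °C list, the shared windows or the 29 °C list. After these divisions the median ratio was 2.95, 2.08 and 1.76, and the ratio reached 2 at 27, 18 and 12 of the 34 sites. Of the 34 ratios, 33, 32 and 31 stayed above 1. The same factors divide the ratios of all windows. Shares over all windows were not counted after scaling, so these counts have no background beside them.

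**Figure D2:**
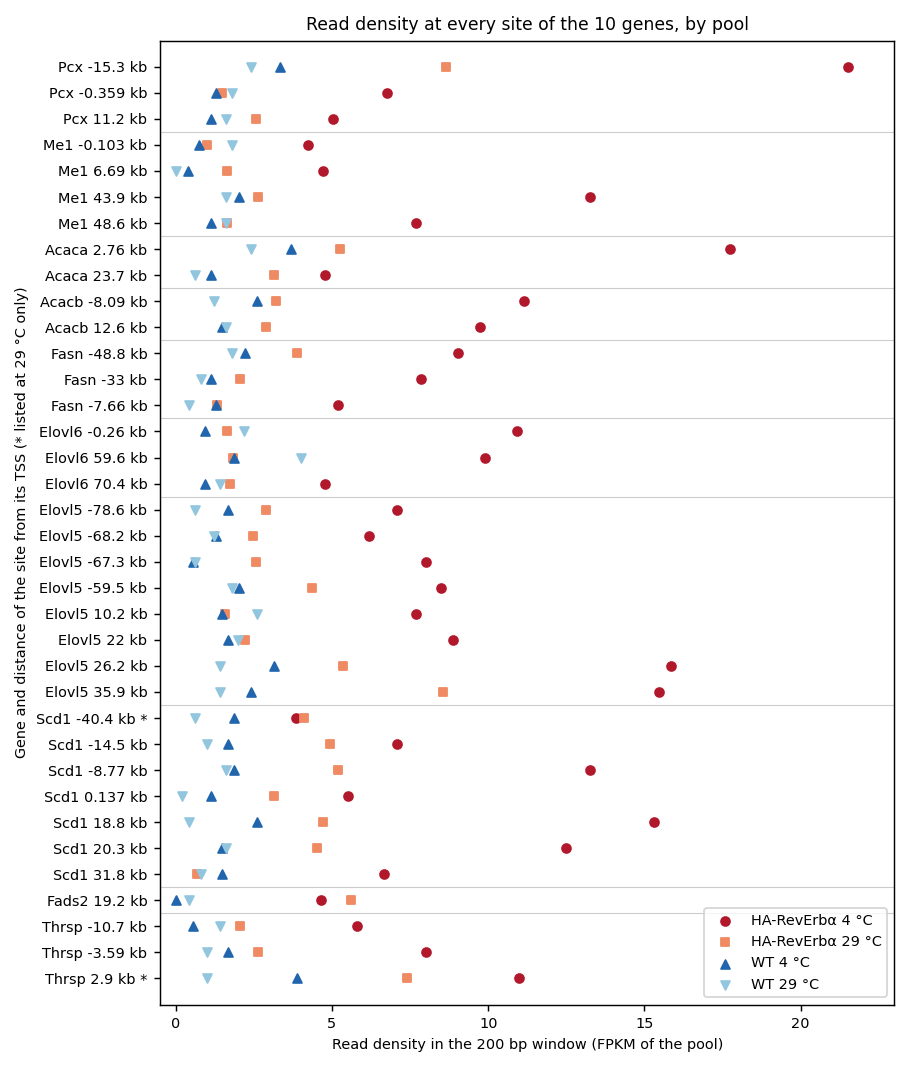
Read density in FPKM (x axis) at each of the 36 sites (y axis, gene and distance from the TSS) in the HA-RevErbα pools at 4 °C and 29 °C and the WT pools at 4 °C and 29 °C, 1 point per pool with no replicate error. The 4 °C HA-RevErbα point is the highest at every site but those of Fads2 and of Scd1 at -40.4 kb, and the highest value, 21.50 FPKM, is at Pcx.

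The enzymes that supply carbon and reducing power were represented by Pcx and Me1. Pcx encodes pyruvate carboxylase, which makes the oxaloacetate that joins acetyl-CoA in citrate, and it held the highest-scoring site of the 10 genes. That site (chromosome 19, 4578956 to 4579156), in intron 2 and 15.3 kb before the start of the transcript NM_008797, had 21.50 FPKM at 4 °C and 8.65 FPKM at 29 °C in the HA-RevErbα pools, against 3.33 and 2.40 FPKM in the WT pools. It rested on 274 and 105 HA-RevErbα reads, gave a ratio of 2.49 (1.98 to 3.15) and had rank 351 by score among the 11227 sites. At 29 °C it exceeded WT by 6.25 FPKM but by only 3.61 times, and was not listed there. Every listed site exceeded WT at its own temperature by at least 3 FPKM and, within rounding, by at least 4 times. The promoter site of the same transcript (4593860 to 4594060, with its centre at -359 bp) had 6.75 FPKM at 4 °C and 1.49 FPKM at 29 °C, against 1.3 and 1.80 FPKM in WT. The intronic site was thus above WT at both temperatures, while the promoter site was 5.23 times WT at 4 °C and 0.825 times WT (0.352 to 2.08) at 29 °C. A further Pcx site, 11.2 kb into the longer transcript NM_001162946, had 5.03 and 2.56 FPKM, against 1.12 and 1.60 FPKM in WT (ratio 1.97, 1.26 to 3.13).

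Me1 encodes the cytosolic malic enzyme, which yields NADPH for fatty acid synthesis. Distances of its 3 intronic sites run from an alternative start (NM_001198933) that lies 8.74 kb inside the start of NM_008615, to which its promoter site was annotated. Its 4 sites were all in the 4 °C list only, with ratios from 2.86 to 5.04. The site with the highest score, in intron 6 at 43.9 kb (chromosome 9, 86537192 to 86537392), had 13.26 FPKM at 4 °C and 2.64 FPKM at 29 °C, against 2.04 and 1.60 FPKM in WT, a ratio of 5.04 (3.44 to 7.60). A neighbour in the same intron at 48.6 kb had 7.69 and 1.65 FPKM, against 1.12 and 1.60 FPKM in WT, so at 29 °C it was 1.03 times WT (0.435 to 2.71). The Me1 promoter site, with its centre at -103 bp (86589950 to 86590150), was the weakest of the 34 by score (8.47). It had 4.24 FPKM at 4 °C and 1.0 FPKM at 29 °C, against 0.75 and 1.80 FPKM in WT. The remaining site, in intron 1 at 6.69 kb, had 4.71 and 1.65 FPKM, against 0.38 FPKM and no read in the WT pools. A count of 0 in the WT pool at 29 °C allows up to 0.598 FPKM (3 reads), and the exact 95% lower limit of HA-RevErbα over WT there was 2.04 times.

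Acaca and Acacb encode the 2 acetyl-CoA carboxylases, the cytosolic one that makes malonyl-CoA for chain building and the mitochondrial-surface one whose malonyl-CoA inhibits fatty acid uptake into mitochondria. Each had 2 sites, all listed at 4 °C only. In intron 1 of Acaca, 2.76 kb past the TSS (chromosome 11, 84011598 to 84011798), the HA-RevErbα pools had 17.73 FPKM at 4 °C and 5.27 FPKM at 29 °C, against 3.70 and 2.40 FPKM in WT (ratio 3.37, 2.54 to 4.52). At 23.7 kb, in intron 3, density was 4.79 and 3.14 FPKM, against 1.12 and 0.61 FPKM in WT. The ratio there was 1.53 (1.0 to 2.36) and became 0.897 after division by the WT factor from the 29 °C list. The intron 3 site also exceeded WT at 29 °C by 5.22 times, more than the 4 times seen in the lists, but by 2.53 FPKM, short of the 3 FPKM. The ratios of the pair of Acaca sites thus differed beyond counting error. With 1 pool per group, variation between animals is left out, and a difference in response to temperature was not tested.

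The ratios of the Acacb sites overlapped within counting error. The one at -8.09 kb (chromosome 5, 114607335 to 114607535) had 11.14 FPKM at 4 °C and 3.22 FPKM at 29 °C, against 2.59 and 1.21 FPKM in WT, with a ratio of 3.47 (2.42 to 5.08). The one in intron 1 at 12.6 kb had 9.73 and 2.89 FPKM, against 1.48 and 1.60 FPKM in WT, with a ratio of 3.38 (2.31 to 5.07). Distances depend on the transcript the annotation chose. In RefSeq of a later build, GRCm38.p6, the Acacb gene begins 19.2 kb upstream, and the Acaca gene 65.8 kb upstream, of the start in the promoter table.

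Fasn encodes fatty acid synthase, which builds palmitate from malonyl-CoA. None of its 3 sites lay in Fasn itself: all were upstream, at -48.8, -33.0 and -7.66 kb, and carried an intron annotation of NM_027745, the transcript of the neighbouring gene Ccdc57. They were listed at 4 °C only. The site at -48.8 kb (chromosome 11, 120734602 to 120734802, intron 15) had 9.03 FPKM at 4 °C and 3.88 FPKM at 29 °C, against 2.22 and 1.80 FPKM in WT, with a ratio of 2.33 (1.65 to 3.35). The one at -33.0 kb had 7.85 and 2.07 FPKM, against 1.12 and 0.81 FPKM in WT, and the one nearest to Fasn had 5.19 and 1.33 FPKM, against 1.3 and 0.41 FPKM in WT. From the farthest to the nearest site, these 4 °C densities rested on 115, 100 and 66 HA-RevErbα reads, and a trend with distance was not tested. The ratios of the nearer sites, 3.81 (2.44 to 6.17) and 3.93 (2.25 to 7.28), overlapped that of the farthest within counting error. The assignment to Fasn is by nearest TSS, and which gene these sites act on was not tested.

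Elovl6 encodes the elongase that extends palmitate to stearate. It had the highest summed ratio of the 10 genes, 4.93 (3.76 to 6.57) over its 3 sites, all listed at 4 °C only, though that of Me1, 4.32 (3.41 to 5.54), did not differ from it beyond counting error. Its highest-scoring site lay in the promoter, with its centre at -260 bp (chromosome 3, 129234944 to 129235144). Read density was 10.91 FPKM at 4 °C and 1.65 FPKM at 29 °C in the HA-RevErbα pools, against 0.93 and 2.20 FPKM in the WT pools (ratio 6.63, 4.13 to 11.2). HA-RevErbα was 11.8 times WT at 4 °C, where the listing selected on signal over WT, and 0.75 times WT at 29 °C (0.343 to 1.73). No enrichment over WT was thus detectable at this depth at 29 °C. The intron 2 site at 59.6 kb had 9.89 and 1.82 FPKM, against 1.85 and 4.00 FPKM in WT. Its 29 °C HA-RevErbα density was 0.454 times WT (0.236 to 0.876), the one site of the 34 whose counting interval lay below WT. The site at 70.4 kb, also in intron 2, had 4.79 and 1.74 FPKM, against 0.93 and 1.41 FPKM in WT (ratio 2.77, 1.66 to 4.79).

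The Elovl6 promoter is shown because the listed window, -360 to -160 bp from the TSS, covers part of it. The sequence is the 250 bases before the start in the RefSeq entry of build GRCm38.p6, chr3:129532136-129532385, plus strand, with capitals marking TGACCT, which is AGGTCA on the opposite strand.
Elovl6 promoter: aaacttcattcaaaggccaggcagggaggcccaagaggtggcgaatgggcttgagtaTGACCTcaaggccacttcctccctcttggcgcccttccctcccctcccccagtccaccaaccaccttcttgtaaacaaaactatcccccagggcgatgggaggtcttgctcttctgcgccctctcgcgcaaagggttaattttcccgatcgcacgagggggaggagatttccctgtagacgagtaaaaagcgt
The hexamer spans positions -193 to -188 from the start, inside the listed window. On the strand that reads AGGTCA, the bases before it are ggccttg, which is not an A/T-rich flank, and those after it are tactcaa. The direct repeats of the hexamer that were searched were not found in this promoter entry. The match is thus to the hexamer alone and not to the fuller site described above. AGGTCA on either strand is present in 16.3% of the 32851 promoter entries of the table (250 bases before to 50 after a start), so the match is a description and not a mapped binding base.

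Elovl5 encodes the elongase of polyunsaturated chains. Its 8 sites formed 2 groups on either side of the TSS with 69.5 kb between them, 4 upstream from -78.6 to -59.5 kb and 4 in intron 1 from 10.2 to 35.9 kb. No Elovl5 site lay within 10 kb of the TSS. The strongest was in intron 1 at 26.2 kb (chromosome 9, 77791246 to 77791446), with 15.85 FPKM at 4 °C and 5.36 FPKM at 29 °C in the HA-RevErbα pools, against 3.14 and 1.41 FPKM in WT (ratio 2.96, 2.23 to 3.98). The site at 35.9 kb (77800959 to 77801159) was nearly as strong in the cold and stronger at 29 °C, with 15.46 and 8.56 FPKM, against 2.41 and 1.41 FPKM in WT, and it alone was in both lists. Its detailed annotation is a simple repeat, (CAGG)n. Its ratio of 1.81 (1.42 to 2.31) was among the lower ones of the gene. The other pair in the intron, at 10.2 and 22.0 kb, had 7.69 and 8.87 FPKM at 4 °C but 1.57 and 2.23 FPKM at 29 °C, where the WT pool had 2.60 and 2.0 FPKM. Within this one intron the ratio therefore ran from 4.92 (2.99 to 8.52) at 10.2 kb to 1.81 at 35.9 kb. The counting intervals of these extremes did not overlap, but they leave out variation between animals. The 4 upstream sites had 6.20 to 8.48 FPKM at 4 °C and 2.48 to 4.37 FPKM at 29 °C, with ratios from 1.94 to 3.14.

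Scd1 encodes stearoyl-CoA desaturase, which makes oleate and palmitoleate. It had 6 sites in the 4 °C list and 3 in the 29 °C list, 2 of them shared, and so 7 distinct sites between -40.4 and 31.8 kb. The highest score belonged to the shared site at 18.8 kb (chromosome 19, 44463332 to 44463532), with 15.30 FPKM at 4 °C and 4.70 FPKM at 29 °C, against 2.59 and 0.41 FPKM in WT (ratio 3.26, 2.42 to 4.46). The window of the 29 °C list for this site lay 134 bp away and overlapped it by 66 bp; read there, the densities were 10.36 and 5.19 FPKM and the ratio was 2.0 (1.47 to 2.74). The value at this site thus depended on which list placed the window. At -8.77 kb the pools had 13.26 and 5.19 FPKM, against 1.85 and 1.60 FPKM in WT, and at 20.3 kb 12.48 and 4.53 FPKM, against 1.48 and 1.60 FPKM in WT. Both were near 3 times WT at 29 °C and listed at 4 °C only.

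The ratios of the other Scd1 sites ran from 0.934 to 10.1. At 31.8 kb (44450325 to 44450525) the pools had 6.68 FPKM at 4 °C and 0.67 FPKM at 29 °C, against 1.48 and 0.81 FPKM in WT. The ratio of 10.1 (4.91 to 24.2) is the highest of the 34, and it rests on 8 reads at 29 °C, a density below WT. In the 5′ UTR of exon 1, centred 137 bp past the TSS (44481962 to 44482162), density was 5.50 FPKM at 4 °C and 3.14 FPKM at 29 °C, against 1.12 and 0.21 FPKM in WT. There HA-RevErbα exceeded WT by 2.93 FPKM at 29 °C, just short of the 3 FPKM of the list. The shared site at -14.5 kb had 7.07 and 4.94 FPKM, against 1.67 and 1.01 FPKM in WT; its ratio of 1.43 (1.02 to 2.02) turned to 0.993 and 0.839 when divided by the WT factors of the shared windows and of the 29 °C list. The site at -40.4 kb (44522532 to 44522732) was listed at 29 °C only, with 3.85 FPKM at 4 °C and 4.12 FPKM at 29 °C, against 1.85 and 0.61 FPKM in WT. Its HA-RevErbα densities did not differ between the temperatures beyond counting error (ratio 0.934, 0.617 to 1.41), and the WT pools had 10 and 3 reads.

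**Figure D3:**
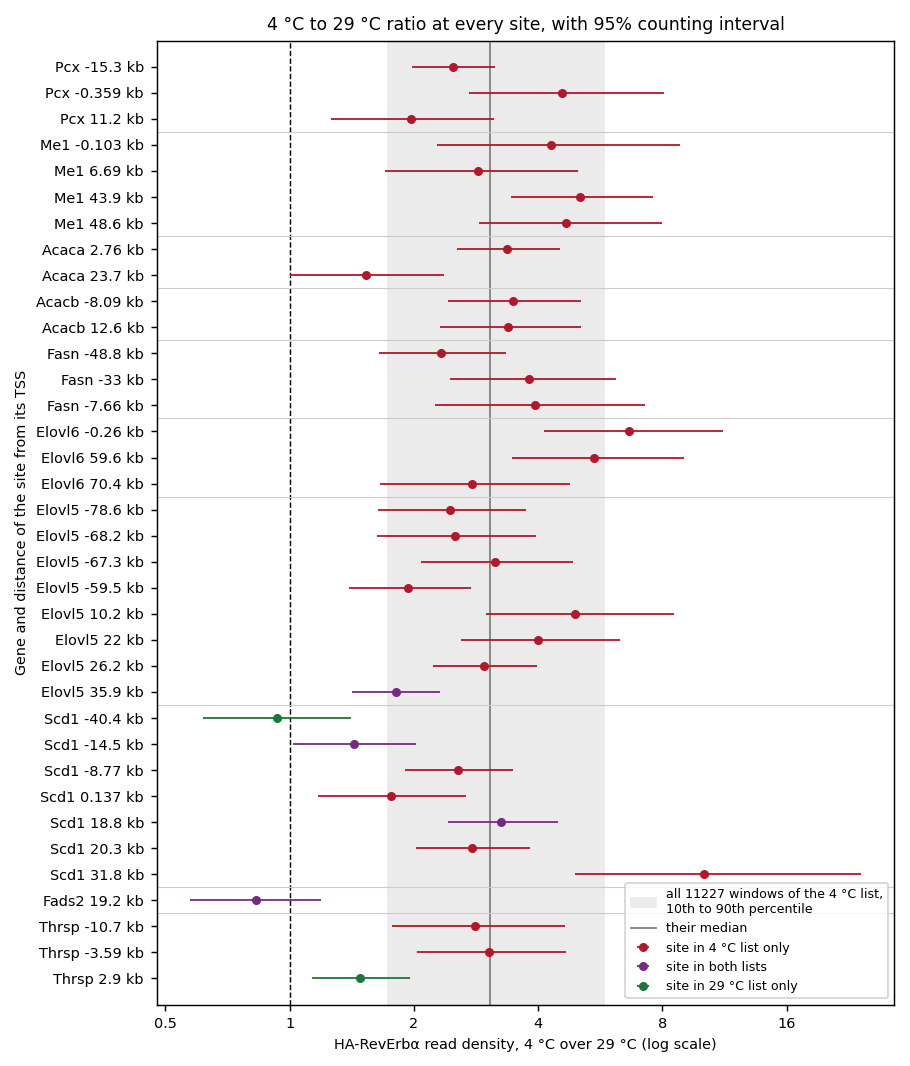
Ratio of HA-RevErbα density at 4 °C over 29 °C (x axis, log scale) at the 36 sites (y axis) with exact 95% counting intervals as bars. The grey band is the 10th to 90th percentile over all windows of the 4 °C list (1.73 to 5.76) and the grey line their median (3.05); the point of Fads2 and that of Scd1 at -40.4 kb lie below 1, and those of Elovl6 at -0.260 kb and Scd1 at 31.8 kb lie above the band.

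Fads2 encodes the delta-6 desaturase of polyunsaturated fatty acids. Its only site, in intron 5 at 19.2 kb (chromosome 19, 10156693 to 10156893), had the same window in both lists. The HA-RevErbα pools had 4.64 FPKM at 4 °C and 5.60 FPKM at 29 °C, against no read and 0.41 FPKM in the WT pools. A site in both lists exceeds WT at each temperature by selection, so its comparison with WT is a description only. A count of 0 in the WT pool at 4 °C allows up to 0.553 FPKM, and the exact 95% lower limit of HA-RevErbα over WT was 6.59 times. At 29 °C it was 14 times WT (3.74 to 118.2). The ratio of 0.827 (0.574 to 1.19) included 1, and it was the only ratio under 1 among the 34 sites of the 4 °C list. The related desaturase genes Fads3 and Fads1 lie on either side, each with 1 site in the 4 °C list. The Fads3 site, 38.2 kb away, had 7.38 and 2.39 FPKM (ratio 3.09, 2.02 to 4.86), and the Fads1 site, 89.0 kb away on the other side, had 5.50 and 0.67 FPKM (ratio 8.34, 4.01 to 20.1). Both intervals lay above that of Fads2.

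Thrsp encodes Spot 14, a small protein induced by thyroid hormone that promotes lipogenesis. It had 2 sites listed at 4 °C only, upstream of the gene, and 1 listed at 29 °C only, within it. At -3.59 kb (chromosome 7, 104569548 to 104569748) the pools had 8.01 FPKM at 4 °C and 2.64 FPKM at 29 °C, against 1.67 and 1.01 FPKM in WT, and at -10.7 kb 5.81 and 2.07 FPKM, against 0.56 and 1.41 FPKM in WT. The intronic site at 2.90 kb (104563064 to 104563264) had more HA-RevErbα signal than either, with 10.99 FPKM at 4 °C and 7.41 FPKM at 29 °C. The WT pools had 3.88 FPKM at 4 °C and 1.01 FPKM at 29 °C there. HA-RevErbα was 2.84 times WT at 4 °C, under the 4 times of the list, and 7.42 times WT at 29 °C. The site listed at 29 °C only thus had the higher HA-RevErbα density at 4 °C (ratio 1.48, 1.13 to 1.96), a direction that turned after division by the WT factor of 1.71.

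Being listed at 4 °C only did not equal a lack of signal at 29 °C. Of the 30 such sites, none met both the 3 FPKM and the 4 times WT at 29 °C, where 1.0% of all 9557 such windows did. HA-RevErbα exceeded WT at 29 °C at 24 of the 30 (against 83.8% of all such windows), and the counting interval of that comparison lay above 1 at 14 (46.7%, against 31.3%). The 3 sites that exceeded WT by over 3 FPKM but by under 4 times were those of Pcx at -15.3 kb, Elovl5 at 26.2 kb and Scd1 at -8.77 kb. The 6 sites at or under WT at 29 °C were those of Elovl6 at -0.260 and 59.6 kb, Me1 at -0.103 kb, Pcx at -0.359 kb, Elovl5 at 10.2 kb and Scd1 at 31.8 kb, 6 of 30 against 16.2% of all windows listed at 4 °C only. Comparisons with WT use the pool sizes, which at 29 °C were 49.2% (HA-RevErbα) and 39.5% (WT) of the aligned reads. These comparisons were not repeated with aligned reads, so calls near equality with WT depend on that choice.

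All 3 sites annotated as promoter, at Elovl6, Me1 and Pcx, were among those at or under WT at 29 °C, which held for 17.9% of the 429 promoter windows of the 4 °C list. This grouping was noticed after the values were seen and rests on 3 windows with 20, 12 and 18 HA-RevErbα reads and 11, 9 and 9 WT reads at 29 °C. The counting intervals of HA-RevErbα over WT at 29 °C included 1 at all 3, and the calls depend on the pool sizes. At 4 °C the same windows were 11.8, 5.74 and 5.23 times WT. Every window of the 4 °C list exceeded WT there by at least 4 times within rounding, so this is a description only. Their WT densities at 29 °C, 2.20, 1.80 and 1.80 FPKM, lay above their WT densities at 4 °C, 0.93, 0.75 and 1.3 FPKM. This direction was not particular to them: WT density was higher at 29 °C at 14 of the 34 sites, these 3 included. Over the 429 promoter windows the median WT density was 1.41 FPKM at 29 °C and 1.30 FPKM at 4 °C. The part of the WT pools in the listing of the 3 promoter sites was not tested. The 5′ UTR site of Scd1, centred 137 bp past the TSS, went the other way at 29 °C. It had 3.14 FPKM against 0.21 FPKM in WT, 15.7 times WT (2.65 to 635.2), on 1 WT read.

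**Figure D4:**
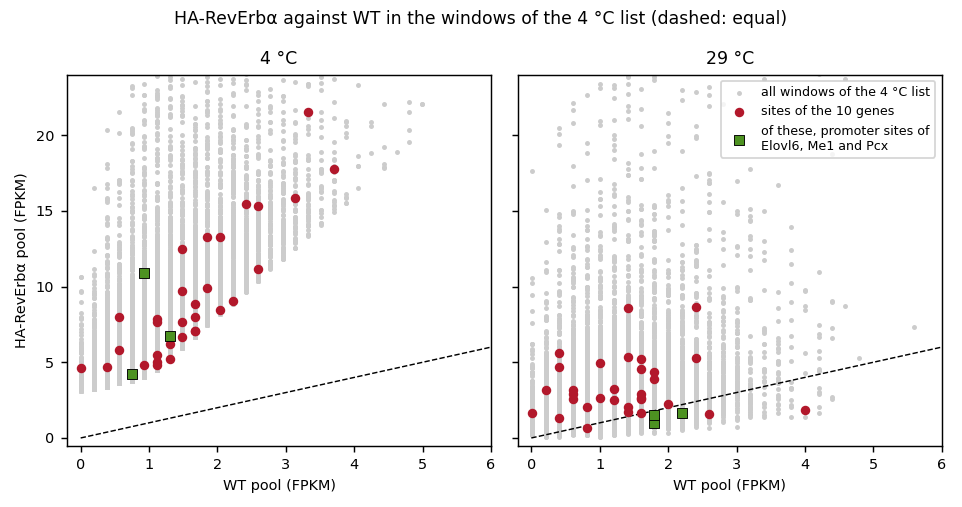
HA-RevErbα density (y axis, FPKM) against WT density (x axis, FPKM) at 4 °C (left) and 29 °C (right) in the windows of the 4 °C list, with the 34 sites of the 10 genes over all windows in grey and a dashed line where both are equal; 261 windows at 4 °C and 53 at 29 °C above 24 FPKM are not shown. The 3 promoter sites (squares) lie far above the line at 4 °C and below it at 29 °C. The listing selected every window on signal over WT at 4 °C.

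Other genes of the pathway were read from a list of 33 that includes citrate cleavage, NADPH supply, further elongases and desaturases and acyl-CoA synthetases. Of these, 15 had a site in the 4 °C list and 4 in the 29 °C list (45.5% and 12.1%). Of all protein-coding genes, 21.8% and 6.30% did. Taking 1 site per gene, the one with the top score, the median ratio was 3.92, against 3.15 for the 10 genes above and 3.04 over all protein-coding genes with a site. It reached 2 at 12 of the 15, at 9 of the 10, and at 82.3% of all such genes. The highest score was at Acsl1, a long-chain acyl-CoA synthetase gene, where a shared site at -83.8 kb had 17.18 FPKM at 4 °C and 10.70 FPKM at 29 °C, against 2.22 and 1.41 FPKM in WT (ratio 1.61, 1.29 to 2.01). Mlycd, which encodes the decarboxylase that removes malonyl-CoA, had a shared site with 15.07 and 5.68 FPKM, against 2.59 and 0.61 FPKM in WT. Acsl5, with a top site listed at 4 °C only, had 14.67 and 2.31 FPKM, against 1.67 and 1.21 FPKM in WT. Ratios were 10.7 (6.07 to 20.6) at the elongase gene Elovl3, with 1.08 FPKM at 29 °C against 0.81 in WT, 5.18 (3.23 to 8.68) at Pgd of the pentose phosphate pathway and 3.92 (2.54 to 6.28) at Hacd2, a dehydratase of chain elongation. Acly, which encodes the ATP-citrate lyase that feeds acetyl-CoA to the pathway, had 1 weak site at -8.14 kb with 3.70 FPKM at 4 °C and 0.91 FPKM at 29 °C, against 0.19 and 1.21 FPKM in WT.

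The shares of genes with a 4 °C site were 45.5% in that list, 44.4% among regulators and 40.9% in the opposing pathway of oxidation. The share over all protein-coding genes was 21.8%. These lists were chosen with earlier results of these data known, so the shares are a description only. Of 9 genes of the SREBP and ChREBP system, 4 had a 4 °C site, namely Insig1, Insig2, Mlxipl and Srebf1. Only Insig1 had a 29 °C site (11.1%, against 6.30% of all protein-coding genes). The top site of Insig1 had 20.01 FPKM at 4 °C and 7.66 FPKM at 29 °C, against 1.12 and 1.6 FPKM in WT. That of Mlxipl had 12.16 and 3.22 FPKM, against 2.59 and 3.0 FPKM in WT. That of Insig2 had 11.85 and 1.49 FPKM, against 1.48 and 0.81 FPKM in WT. Srebf1, which encodes the main transcription factor of lipogenic genes, had 4.95 FPKM at 4 °C and 1.49 FPKM at 29 °C, against 1.12 and 0.81 FPKM in WT, at -10.9 kb. Of 22 fatty acid oxidation genes, 9 had a 4 °C site and 2, Etfa and Ehhadh, a 29 °C site (9.09%, against 6.30%). All 9 lay within 10 kb of a TSS by at least 1 site, against 8 of the 10 synthesis genes and 1970 of the 4586 protein-coding genes with a site. The highest-scoring oxidation site was assigned to Etfa of the electron transfer flavoprotein and lay 90.3 kb from its TSS. It had 29.02 and 13.58 FPKM, against 1.85 and 1.60 FPKM in WT, and so exceeded every site of the 10 genes. At Cpt1a, the gene of mitochondrial fatty acid entry that malonyl-CoA inhibits, the top site lay at 30.8 kb. Its values were 15.61 and 3.30 FPKM, against 1.48 and 2.80 FPKM in WT (ratio 4.74, 3.36 to 6.84). The median ratio of the oxidation list was 3.34 and all 9 reached 2. No test of a difference between these lists was made.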

How the data were processed

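The aligner logs gave reads aligned per library. Per the file headers, peaks were called on pooled libraries and annotated to the nearest gene; the submitters' processing notes name Bowtie2 2.1.0, HOMER 4.10 and mm9, without roles. Peak-calling settings and duplicate removal are not stated there. The deposited FPKM are reads per kilobase of window per M reads of the pool, with 0.01 added. The deposited score equals the authors' reads per 10 M reads of the pool.

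After subtracting 0.01, dividing by the FPKM worth of 1 read gave whole reads (100.0% of 13410 values per pool, within 0.01 FPKM), which recovered reads per window and pool sizes of 63.8 M (HA-RevErbα 4 °C), 60.8 M (HA-RevErbα 29 °C), 27.1 M (WT 4 °C) and 25.1 M (WT 29 °C). With 1 pool per group no count model was run. Ratios and exact 95% intervals were computed in Python 3.11.15 with scipy 1.17.1 and tested on simulated data; no molecular identifiers are described, so several reads may come from 1 molecule. Gene IDs matched for 5447 of 5451 genes listed at 4 °C and for 1629 of 1629 listed at 29 °C in the RefSeq table of GRCm38.p6. RefSeq of that build was used for names, the set of protein-coding genes, the gene of an annotated transcript, gene starts and promoter sequences. The Elovl6 start kept its distance to 12 of 20 neighbouring starts in both builds.

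The genes and lists were chosen with earlier results of these data known. All 10 genes are named with every site; other lists name up to 6 genes by score, and Acly, Fads1 and Fads3 were named outside that rule after their values were seen. Alternatives were pool scaling, WT subtraction, a pseudocount, filters, distance and overlap limits.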

Additional observations from a re-analysis of the deposited data

How the results depend on the processing

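The median 4 °C to 29 °C ratio over the 34 sites was 3.0 with pools scaled by their reads. Scaled by WT reads over the 4 °C list or by aligned reads, it was 2.95 and 3.04. With WT reads over shared windows or the 29 °C list it was 2.08 and 1.76. As a ratio of FPKM + 1, from log2(FPKM + 1), it was 2.50. Over the sites with at least 8 FPKM at 4 °C it was 3.14. After subtracting WT it was 3.79 over 28 sites, so it is not over the same sites as 3.0. The 6 sites left out were at or under WT at 29 °C and had ratios from 4.29 to 10.1. Among the 28, the subtracted ratio reached 131.4 at Me1 48.6 kb, where the 29 °C difference was 0.05 FPKM. The 27 sites at a ratio of 2 or more became 12 with WT reads over the 29 °C list. Under the 8 FPKM filter they became 15 of 17, and all 17 were above 1. That filter selects on the 4 °C value in the ratio, so it supports nothing about the ratio. Shares over all windows were not counted under these settings. Single ratios crossed 1 at Scd1 -14.5 kb (0.993 with the shared-window factor, 0.839 with that of the 29 °C list) and at Acaca 23.7 kb (0.897 with that of the 29 °C list). Each list was selected on WT signal at its own temperature, and the part of that selection in the factors was not tested.

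Requiring 6 FPKM over WT left 20 sites at 4 °C and 2 at 29 °C, at 2 genes, with 1 shared. Within 10 kb of the TSS 10 sites remained at 4 °C and 1 at 29 °C, at 1 gene, with 0 shared. With an overlap of at least 100 bp, 3 sites were shared. Asking only for 2 times WT at 29 °C, 17 of the 30 sites listed at 4 °C only passed in place of 0 (56.7%, against 46.4% of all such windows). For the other synthesis genes, the 4 with a 29 °C site became 2 within 50 kb and 1 within 10 kb, and for the regulators the 4 genes at 4 °C and 1 at 29 °C became 1 and 0 within 10 kb.

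No paired analysis was possible because the binding values were deposited as pools; for the same reason leaving out single libraries was not run. At 29 °C, 3 reads correspond to 0.247 FPKM in the HA-RevErbα pool and 0.598 FPKM in the WT pool, which limits every comparison with WT at these sites.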

Other observations

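The promoter table held 11 entries for 9 of the 10 genes. Besides Elovl6, the hexamer AGGTCA on either strand was found after the start site in an entry of Acacb (positions 44 to 49) and of Pcx (positions 40 to 45), 3 of 11 entries against 16.3% of all entries. Direct repeats of the hexamer with 2 bases or 1 base between the copies and the SREBP letters TCACNCCAC were in none of the 11; they are in 0.00913%, 0.0396% and 1.24% of all entries. The E-box CACGTG, a palindrome, was in the entries of Elovl5 (positions -161 to -156) and of Pcx (the other entry, -248 to -243), against 7.15% of all. CCAAT, the letters read by NF-Y, was in 7 of 11 entries and at 6 genes, among them Fasn, Thrsp and Elovl5, against 37.4% of all. No motif searched overlapped another in the Elovl6 sequence. The matches are letters in a window and say nothing of binding.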
